A study of Sus scrofa with 6 samples.

Results

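Chaperones are proteins that help other proteins fold, and 35 chaperone and folding genes were read here from liver RNA of newborn piglets. They comprise 18 genes of the endoplasmic reticulum (ER) arm and 17 genes of the heat shock arm, which works in the cytosol and the mitochondria. The genes were chosen by symbol from a list, with earlier results of these data known. The symbols were matched to the Ensembl identifiers of the 26733 rows in the deposited tables. A row was found for 28 of the 35. Of these, 26 reached at least 1 FPKM (fragment counts scaled to gene length and library size, a unit inferred from the values because the tables name none) in 3 or more of the 6 libraries, 14 in the ER arm and 12 in the heat shock arm, among 10901 genes that did so. HERPUD1, SDF2L1, MANF, EDEM1, HSPB1, HSPA1A and HSPA1B were not analysed here, because the identifier paired with the symbol had no row or the symbol had no identifier of its own. HSP70.2 and AHSA1 had rows below that level.

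The libraries came from liver of newborn Landrace x Yorkshire piglets whose mothers differed in how dietary tryptophan was spread over the day. In the 2xTrp group the sow's feed held 0.26% tryptophan at both meals, and in the High-Low group it held 0.39% at the morning meal and 0.13% at the afternoon meal. Each group had 3 libraries, called 2xTrp 1 to 3 and High-Low 1 to 3, and the series title frames the study as a search for liver genes tied to negative effects of the amino acid. The labels give neither the litter nor the animal of a library, so a p-value here reflects just the variation among 6 samples, and part of that variation may be technical.

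Proteins that the liver secretes are threaded into the ER, where HSPA5 (BiP), an HSP70-type chaperone, holds them while lectin chaperones and disulphide isomerases shape them. When unfolded protein builds up there, the sensors ERN1, EIF2AK3 and ATF6 start the unfolded protein response, in which XBP1 and ATF6 raise the transcription of ER chaperones. The cytosol has a separate system. Heat or other damage releases the transcription factor HSF1, which raises HSP70 together with its J-domain partner DNAJB1, its cochaperone BAG3 and members of the HSP90 machinery.

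FPKM totals ran from 956426 to 1230290 per library, and the number of reads behind them is unknown, so no counting interval can be given. Of 15 hepatocyte markers, 13 had rows, and their summed level was 46882 to 62534 FPKM in the 2xTrp libraries and 44398 to 68021 in High-Low. The sum hides opposite directions. APOA1 had 20661 to 31095 FPKM in 2xTrp and 16263 to 19960 in High-Low, and ALB 9391 to 15282 and 13554 to 19795. On the log2 scale the High-Low mean was higher for 7 of the 13 markers and lower for 6. High-Low 1 stood at an extreme of the 6 libraries, highest or lowest, for 47.3% of all genes tested and High-Low 2 for 41.9%, against 24.4% for 2xTrp 3. Listed gene lengths are short for several members (183 bases for PDIA3, 247 for DNAJC3), and the sources used here do not say whether they entered the FPKM, so levels are compared between genes only as the deposited per-length values.

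No chaperone gene was called between the maternal diets. At an adjusted p under 0.05 in limma, 0 of the 26 genes passed, against 0.00917% of all genes tested (1 of 10901). At an unadjusted p under 0.05 the count was also 0, against 3.16% of all genes. The 3 High-Low values stood clear of the 3 2xTrp values, all above or all below, for 0 of the 26, and for 7.18% of all genes. For the 26 genes, adjusted p-values in limma were 0.998 to 0.999. The count at an adjusted p under 0.05 was 0 under each of the 18 other settings tried as well, while array quality weights brought 6 members under an unadjusted p of 0.05 (BAG3, DNAJB1, HSP90AB1, the row named HSPA1L, SEL1L and XBP1). Leaving out High-Low 1 did so for BAG3, and leaving out High-Low 2 for the HSPA1L row and SEL1L. The share of all genes at that level was not counted under these settings. The 3.16% belongs to the main fit, so these member counts have no background to be read against.

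Summarised over its genes, neither arm had a median difference between diets far from 0. The median log2 fold change, High-Low minus 2xTrp on log2(FPKM + 1), was -0.04 over the 14 ER genes and 0.13 over the 12 heat shock genes, beside -0.0038 over all genes tested. Of the ER genes 6 were positive and 8 negative, and of the heat shock genes 8 were positive and 4 negative. The means had the opposite sign to the medians in both arms, at 0.04 and -0.08. Single rows weigh on such means: without the HSPA1L row the heat shock mean was -0.0041. In the ER arm the largest value was that of SEL1L, at 0.76. Without 2xTrp 1 the heat shock median was -0.07, and with array quality weights it was -0.03. Added up, the ER arm held 2850 ± 321 FPKM in the 2xTrp libraries and 2751 ± 170 in High-Low, and the heat shock arm 1156 ± 74.5 and 1125 ± 126 (SD, n = 3 each).

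Taken library by library, the arms did not follow each other. An arm's level is the mean over its genes of log2(FPKM + 1) minus each gene's mean over the 6 libraries. The ER arm stood at -0.18, 0.23 and -0.11 in 2xTrp 1, 2 and 3 and at 0.11, -0.02 and -0.03 in High-Low 1, 2 and 3. The heat shock arm stood at 0.08, -0.03 and 0.07 in 2xTrp and at 0.08, 0.08 and -0.29 in High-Low. The ER arm was therefore lowest in 2xTrp 1 and highest in 2xTrp 2. Over all its genes, the heat shock arm had 1 low library, High-Low 3, and lay close to its mean in the other 5. Heat shock minus ER level was 0.26, -0.26 and 0.18 in 2xTrp and -0.03, 0.11 and -0.25 in High-Low, so the groups overlapped. Without the HSPA1L row the heat shock arm stood at -0.04, -0.0006 and 0.05 in 2xTrp and at 0.18, 0.03 and -0.22 in High-Low. High-Low 3 was then still the lowest library, but High-Low 1 stood well above the mean.

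**Figure D1:**
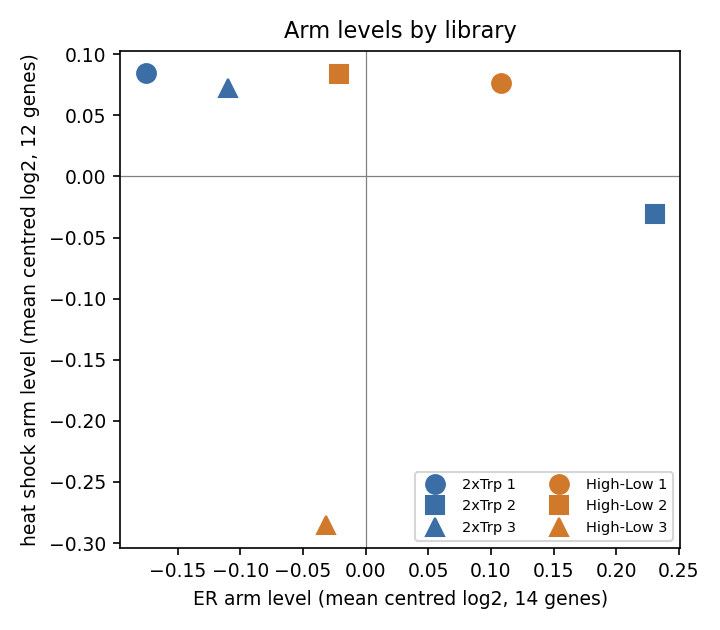
Level of the heat shock arm (vertical axis, 12 genes) against the ER arm (horizontal axis, 14 genes), as mean log2(FPKM + 1) centred per gene, 1 point per library, blue for 2xTrp and orange for High-Low. High-Low 3 lies alone at -0.29 on the vertical axis, and 2xTrp 1 and 2xTrp 2 are at the ends of the horizontal axis, at -0.18 and 0.23.

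Within the same library, members of an arm stood at opposite ends of their ranges. In 2xTrp 1, 4 of the 12 heat shock genes had their highest value (the HSPA1L row, DNAJB1, HSPA8 and BAG3) and 6 had their lowest (HSPE1, HSP90AA1, HSPD1, HSPA4, HSPH1 and DNAJA1). Over all genes tested, 17.6% were highest and 17.5% lowest in that library. In the ER arm 5 of 14 genes were lowest in 2xTrp 1 (HSP90B1, CANX, PDIA3, DNAJC3 and DNAJB11) and 1 was highest (HYOU1). The 2xTrp 2 library held the highest value of 6 of the 14 ER genes and of 0 of the 12 heat shock genes, where 12.6% of all genes were highest in it. These sets were read off the values and carry no test.

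**Figure D2:**
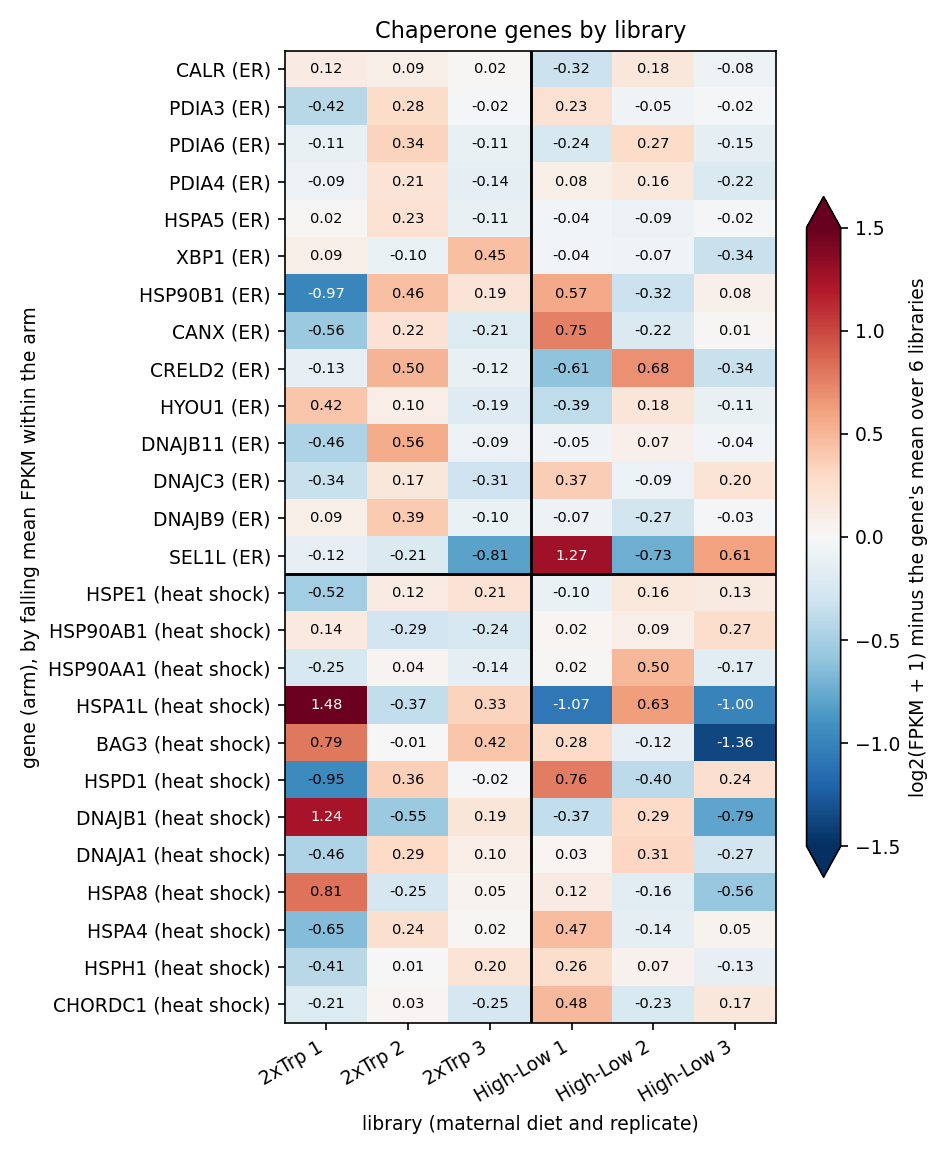
Centred log2(FPKM + 1) of the 26 genes (rows, ordered by falling mean FPKM within the ER arm above and the heat shock arm below) in the 6 libraries (columns), red above and blue below the gene's own mean. The first column holds both the strongest red of the heat shock arm (the HSPA1L row 1.48, DNAJB1 1.24) and deep blue cells (HSP90B1 -0.97, HSPD1 -0.95), while HSPA5 stays within -0.11 and 0.23.

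HSPA5, the central HSP70 of the ER and the gene most used as a readout of ER stress, had the smallest log2 range over libraries of the 26 in the values as deposited (0.33), and the second smallest, after CALR, once a trend with gene span was subtracted (0.40 against 0.27). It had 255, 294 and 233 FPKM in 2xTrp 1, 2 and 3 and 244, 237 and 248 in the High-Low libraries in the same order. The High-Low values lay inside the 2xTrp range, and the highest library was 1.26-fold above the lowest. That ratio had a median of 2.06 over all genes tested and of 1.75 over genes with a mean of at least 100 FPKM. The log2 fold change between diets was -0.09 (SE 0.17, 95% interval from -0.50 to 0.31), which bounds the change between 0.707-fold and 1.24-fold on the log2(FPKM + 1) scale.

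The partners of HSPA5 spread more widely and in different directions. HYOU1, a large HSP70-related protein that exchanges nucleotide on HSPA5, had 65.6, 52.4 and 42.6 FPKM in the 2xTrp libraries and 37.2, 55.5 and 45.2 in High-Low. DNAJC3, a J-domain cochaperone of HSPA5, had 25.1, 36.1 and 25.6 against 41.5, 30.0 and 36.8. HYOU1 was lowest in High-Low 1, the library in which DNAJC3 was highest. DNAJB9, a J-domain protein of the ER that also holds the sensor ERN1 in check, had 21.8, 27.2 and 19.0 FPKM against 19.4, 16.8 and 19.98. DNAJB11, another J-domain partner, ranged from 23.0 in 2xTrp 1 to 47.6 in 2xTrp 2, with all 3 High-Low libraries between 30.9 and 33.7. The diets overlapped for all 4, with log2 fold changes from -0.25 (DNAJB9) to 0.32 (DNAJC3).

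HSP90B1 (GRP94), the HSP90 of the ER, did not keep step with HSPA5. Its level was 87.0 FPKM in 2xTrp 1, 236 in 2xTrp 2 and 196 in 2xTrp 3, and 255, 137 and 181 in the High-Low libraries. The ratio of HSP90B1 to HSPA5 therefore ran from 0.341 in 2xTrp 1 to 1.05 in High-Low 1. In the values as deposited, the lowest and the highest HSP90B1 value were in different diets. HSP90B1 spans 67641 bases and HSPA5 4451. Once a trend with gene span was subtracted, HSP90B1 was lowest in 2xTrp 1 and highest in 2xTrp 2, the same diet. The diet difference (log2 fold change 0.22, SE 0.41) became -0.22 without 2xTrp 1 and -0.014 without High-Low 1.

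Calnexin and calreticulin, the paired lectin chaperones that bind glucose-tagged glycoproteins, stood at opposite ends of their ranges in High-Low 1. CALR, the most abundant member, had 779, 760 and 726 FPKM in the 2xTrp libraries and 571, 808 and 676 in High-Low. CANX had 48.1, 83.1 and 61.6 FPKM against 121, 60.9 and 71.8. High-Low 1 thus had the lowest CALR and the highest CANX. Their log2 fold changes were -0.15 (SE 0.19) and 0.36 (SE 0.32), and without High-Low 1 they were -0.030 and 0.076. CALR spans 3813 bases and CANX 36901, and levels of all genes in High-Low 1 differed with span.

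The disulphide isomerases, which make and rearrange the disulphide bonds of secreted proteins, were abundant in the values as deposited. PDIA3, which works with the lectin chaperones, had 317, 514 and 417 FPKM in the 2xTrp libraries and 496, 409 and 417 in High-Low. PDIA6 had 373, 510 and 374 against 340, 486 and 363, and PDIA4 had 266, 328 and 256 against 301, 316 and 243. All 3 were highest in 2xTrp 2. Their highest-to-lowest ratios were 1.62, 1.50 and 1.35, beside a median of 1.75 over genes with a mean of at least 100 FPKM. With log2 fold changes of 0.11, -0.08 and 0.02, the 95% intervals lay within 0.63 of 0 for each.

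CRELD2, an ER stress-induced protein that can be secreted, followed another order. It had 56.5, 88.1 and 57.0 FPKM in the 2xTrp libraries and 40.2, 99.8 and 48.8 in High-Low. Its 2 high libraries were therefore 2xTrp 2 and High-Low 2, 1 in each diet, and High-Low 1 was the lowest. SEL1L, the scaffold of the ubiquitin ligase that clears misfolded ER proteins, had the largest range of the arm. It had 6.62, 6.17 and 3.75 FPKM against 19.0, 3.99 and 11.6. High-Low 1 and High-Low 3 exceeded all 2xTrp libraries, but High-Low 2 lay among them, and the log2 fold change of 0.76 (SE 0.49) had an adjusted p of 0.998 in limma. Without High-Low 2 it was 1.32 and without High-Low 1 it was 0.32, and the former fit had a smallest adjusted p over the members of 0.344 in limma.

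XBP1, the transcription factor that ERN1 activates by splicing its mRNA, had 253, 222 and 326 FPKM in the 2xTrp libraries and 232, 228 and 188 in High-Low. The row spans 807 bases of chromosome 14 (49015844 to 49016650 in susScr3) and has a listed length of 807, so it has no intron in this gene model, and spliced and unspliced XBP1 cannot be told apart in these values. The log2 fold change was -0.29 (SE 0.21), and the highest value was in 2xTrp 3, where HSPA5 was lowest.

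In the heat shock arm the widest spread was in the HSP70 row. ENSSSCG00000030368 carries the name HSPA1L and lies at the very start of the unplaced scaffold GL896522.1 (bases 3 to 1799, minus strand). It stood at 272, 75.1 and 122 FPKM in the 2xTrp libraries and at 45.7, 151 and 48.0 in the High-Low ones. The highest library was 5.94-fold above the lowest, and each diet held low and high libraries. HSPA1L is known mainly as an HSP70 of the testis, and the heat-inducible HSP70 genes are close relatives beside it, so which copy these fragments came from is uncertain. The inducible gene HSP70.2 on the same scaffold (12986 to 15088, plus strand) had only 0.114 to 0.344 FPKM over the 6 libraries. In the RefSeq table of the Sscrofa11.1 assembly HSP70.2 lies inside the span given to HSPA1L, and HSPA1A and HSPA1B are synonyms of HSP70.2. The unnamed feature Novel01360 between them (10427 to 10876, minus strand), chosen once the values were known, stood at 71.7, 21.4 and 36.0 FPKM against 19.3, 49.4 and 16.8. It stood at 1 part in 2.38 to 3.79 of the HSPA1L row over the libraries, whose order was the same in both rows except for the lowest pair, High-Low 1 and High-Low 3.

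The cytosolic HSP70 partners DNAJB1 and BAG3, and HSPA8, were highest in the same library as that row. DNAJB1, the J-domain protein induced with HSP70, had 98.0, 27.5 and 46.6 FPKM in the 2xTrp libraries and 31.3, 50.3 and 23.2 in High-Low. BAG3, which links HSP70 to small heat shock proteins and autophagy, had 128, 73.1 and 98.9 against 89.9, 67.8 and 28.1. HSPA8, the constitutive HSP70 of the cytosol, had 31.2, 14.4 and 18.0 against 18.9, 15.4 and 11.4. 2xTrp 1 was the highest library for each. The second highest was High-Low 2 for the HSPA1L row and DNAJB1, 2xTrp 3 for BAG3 and High-Low 1 for HSPA8, and High-Low 3 was the lowest for DNAJB1, BAG3 and HSPA8. Their log2 fold changes were -0.96 (SE 0.59) for the HSPA1L row, -0.80 (SE 0.43) for BAG3, -0.58 (SE 0.48) for DNAJB1 and -0.40 (SE 0.32) for HSPA8. Without 2xTrp 1 these became -0.46, -0.60, -0.11 and -0.099. Without High-Low 3 they were -0.70, -0.32, -0.33 and -0.22, and none passed at an adjusted p under 0.05 in limma under any setting tried. The widest interval, that of the HSPA1L row, ran from 0.196-fold to 1.35-fold.

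**Figure D3:**
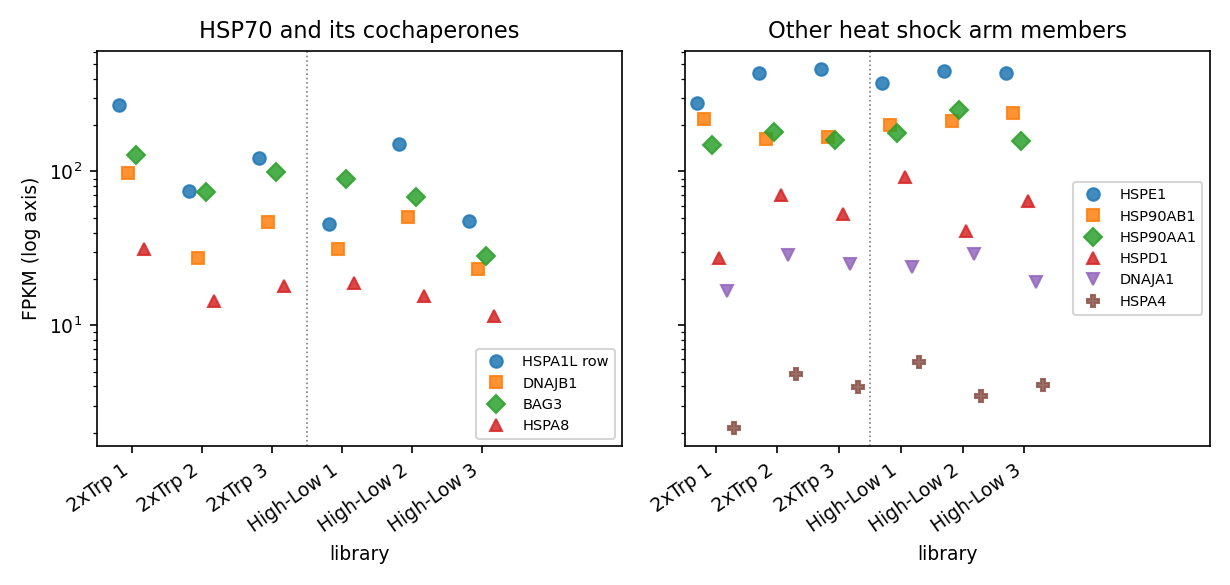
FPKM on a log axis of 4 HSP70-related rows (left) and 6 other heat shock arm members (right) in each library, 2xTrp to the left of the dotted line, with points of a library set side by side. On the left all 4 rows are highest in 2xTrp 1, and on the right HSPE1, HSP90AA1, HSPD1, DNAJA1 and HSPA4 are lowest there.

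The summed erythroid markers and the HSP70 row were both highest in 2xTrp 1 and lowest in High-Low 1. Of 8 erythroid markers, 6 had rows and none was at 0 in any library. Their summed level was 15893, 6170 and 15368 FPKM in the 2xTrp libraries and 1817, 7199 and 4408 in High-Low, nearly all of it HBB. The other markers did not all share that order: HBM, SLC4A1 and EPB42 were highest in 2xTrp 3, at 125, 4.81 and 1.49 FPKM. TRIM10 was lowest in 2xTrp 1, at 1.04, and ALAS2 was highest there, at 64.8. HBB had 15745 FPKM in 2xTrp 1 and 15187 in 2xTrp 3. The part of these cells in the HSP70 values was not tested, and in bulk tissue fewer cells of a type and less RNA per cell cannot be told apart. Macrophage markers (5 of 10 with rows) summed to 413 to 572 FPKM in the 2xTrp libraries and 246 to 444 in High-Low, and endothelial markers (10 of 12) to 107 to 153 and 78.4 to 107. Neutrophil markers (6 of 8 with rows) stood apart in High-Low 2, at 98.5 FPKM against 24.7 to 37.1 in the other 5 libraries. CALR, CRELD2, HSP90AA1 and DNAJA1, 4 of the 26 members, were highest in High-Low 2, beside 23.8% of all genes tested. The part of neutrophils in those values was not tested. Markers of other cells rich in ER were low. Of 11 pancreatic acinar markers 7 had rows, with summed levels of at most 3.06 FPKM and with PNLIP and CLPS at 0 in every library. Among the plasma cell markers (3 of 6 with rows) MZB1 had at most 3.06 FPKM, and SDC1, which hepatocytes also make, gave most of the sum of 42.4 to 86.6.

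The HSP110 proteins HSPA4 and HSPH1, which recycle nucleotide on HSP70, were low and did not share the HSP70 pattern. HSPH1, a gene HSF1 induces strongly, had 1.22, 1.97 and 2.41 FPKM in the 2xTrp libraries and 2.55, 2.09 and 1.71 in High-Low. HSPA4 was lowest in 2xTrp 1, at 2.14 FPKM, and highest in High-Low 1, at 5.79. Both were lowest in the library with the most DNAJB1. DNAJA1, a second J-domain partner, was lowest in 2xTrp 1, at 16.6 FPKM, and highest in High-Low 2, at 29.1. The ratio of DNAJB1 to HSPA8 ran from 1.65 in High-Low 1 to 3.26 in High-Low 2.

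The cytosolic HSP90 genes were steady beside HSP70. HSP90AA1, the stress-inducible form, had 149, 181 and 160 FPKM in the 2xTrp libraries and 178, 249 and 157 in High-Low. HSP90AB1, the constitutive form, had 219, 163 and 168 against 202, 212 and 239. HSP90AA1 was thus lowest and HSP90AB1 second highest in 2xTrp 1. Their log2 fold changes were 0.23 (SE 0.22) and 0.26 (SE 0.19), and that of HSP90AA1 was 0.040 without High-Low 2. Of the HSP90 cochaperones, CHORDC1 ranged from 0.813 to 2.01 FPKM. AHSA1, which stimulates the HSP90 ATPase, was listed at 0 in 4 libraries and at 0.132 and 0.112 FPKM in 2xTrp 2 and High-Low 2.

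HSPD1 and HSPE1, the chaperonin and its lid in the mitochondrial matrix, are neighbours on opposite strands of chromosome 15 (112534190 to 112547852 and 112548610 to 112550291 in susScr3), with 757 bases between them. HSPD1 had 27.6, 69.9 and 53.3 FPKM in the 2xTrp libraries and 92.6, 40.9 and 64.1 in High-Low. HSPE1 had 281, 436 and 466 against 376, 448 and 440. Both were lowest in 2xTrp 1, but HSPD1 was highest in High-Low 1, where HSPE1 was second lowest. The ratio of HSPD1 to HSPE1 therefore ran from 0.0913 in High-Low 2 to 0.247 in High-Low 1. The log2 fold changes were 0.41 (SE 0.41) and 0.13 (SE 0.24). That of HSPD1 was 0.033 without 2xTrp 1, 0.13 without High-Low 1, 0.69 without 2xTrp 2 and 0.71 without High-Low 2, and that of HSPE1 was -0.10 without 2xTrp 1.

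**Figure D4:**
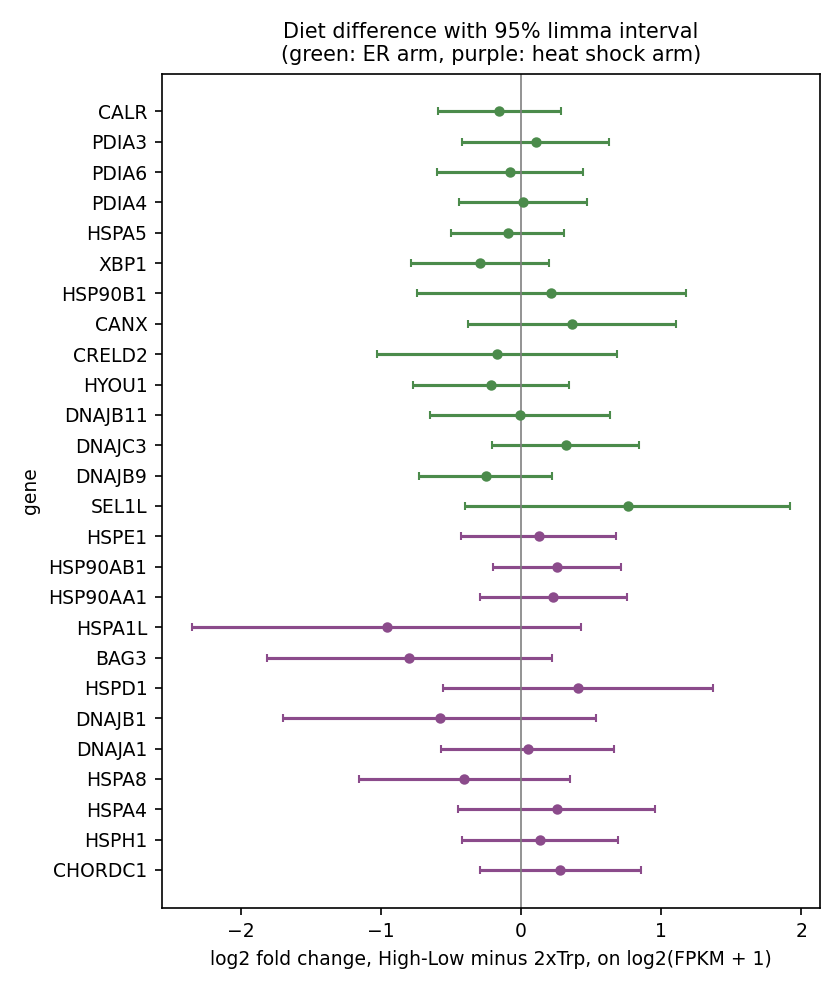
Log2 fold change of the 26 genes, High-Low minus 2xTrp on log2(FPKM + 1), with 95% limma intervals (green ER arm, purple heat shock arm, each by falling mean FPKM). Every interval crosses 0, and the intervals of HSPA5 and CALR are short beside those of the HSPA1L row, BAG3, DNAJB1 and SEL1L.

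How tightly the diet difference was bounded varied between members. The 95% interval lay within 1 of 0 on the log2 scale, a 2-fold change either way, for 10 of 14 ER genes and 7 of 12 heat shock genes. Over all genes tested this held for 7596 of 10901. For the other 9 members (HSP90B1, CANX, CRELD2, SEL1L, the HSPA1L row, HSPA8, DNAJB1, HSPD1 and BAG3) a change of more than 2-fold in at least 1 direction lay within the interval. The median highest-to-lowest ratio over the libraries was 1.69 in the ER arm and 2.59 in the heat shock arm.

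Members whose genes cover a long stretch of genome differed between libraries from those with short genes. Genes in general did so too, but with the opposite sign in 2xTrp 2 and almost no trend in 2xTrp 3. Over the 26 members, Spearman's rho between genomic span and centred level was 0.68 in High-Low 1, 0.41 in High-Low 3, 0.32 in 2xTrp 2, -0.28 in 2xTrp 3, -0.45 in High-Low 2 and -0.51 in 2xTrp 1. Over all 10901 genes it was 0.23, 0.19, -0.07, -0.0036, -0.25 and -0.13 in the same order. These are descriptions across genes, which share the library and are not replicates. All 6 members with spans of 36901 bases or more (CANX, SEL1L, HSPA4, HSP90B1, DNAJC3 and HSPH1) were highest in High-Low 1, as were HSPD1 and CHORDC1, with spans of 13663 and 17398 bases. Each library's curve over span was then subtracted, a setting chosen after seeing the data. High-Low 1 was still the highest library for CANX, SEL1L, HSPA4, DNAJC3, HSPD1 and CHORDC1, but 2xTrp 2 was for HSP90B1 and 2xTrp 3 for HSPH1. The range over the 6 libraries went from 1.54 to 1.39 on the log2 scale for HSP90B1, from 2.07 to 1.95 for SEL1L, from 2.54 to 2.36 for the HSPA1L row and from 1.71 to 1.77 for HSPD1. It went from 0.50 to 0.27 for CALR, a gene of 3813 bases, whose log2 fold change was then -0.090, and from 1.31 to 1.17 for CANX.

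**Figure D5:**
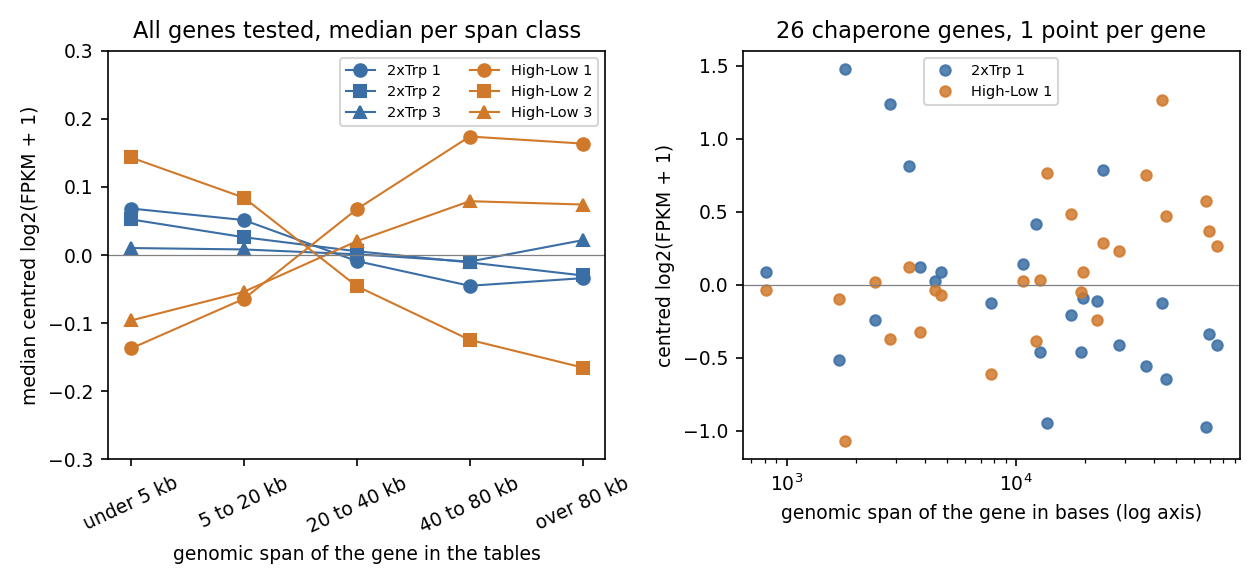
Left, median centred log2(FPKM + 1) of all 10901 genes in 5 classes of genomic span, 1 line per library (blue 2xTrp, orange High-Low). Right, the 26 chaperone genes by span (log axis) in 2xTrp 1 and High-Low 1. Genes over 80 kb have a median of 0.16 in High-Low 1 and -0.17 in High-Low 2, and among the chaperones with long spans the High-Low 1 points lie above those of 2xTrp 1.

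The wider folding pathways gave no call either. Over 8 further lists (111 tested genes of 169 symbols) 0 passed in either direction at an adjusted p under 0.05 in limma, 0 were higher and 3 lower at an unadjusted p under 0.05 (3.16% of all genes, either direction), and the median log2 fold change was -0.02. Of the 111, 2 stood clear of 2xTrp above it (ST13 and CCT4) and 2 below it (CREB3L1 and TXNDC12), 4 in all, a smaller share than the 7.18% of all genes. Of the unfolded protein response sensors and regulators, 12 of 19 were tested, 4 positive and 8 negative. ATF6 had 1.70, 1.82 and 1.71 FPKM in the 2xTrp libraries and 5.66, 0.681 and 3.79 in High-Low, and EIF2AK3 had 0.963 to 2.24 FPKM over the 6 libraries. ATF6 was nearly constant in 2xTrp and lay on both sides of that level in High-Low. It spans 283696 bases. Over all tested genes above 80 kb, the median centred level was 0.16 in High-Low 1, -0.17 in High-Low 2 and 0.07 in High-Low 3. CREB3L1, an ER-bound transcription factor, had 9.22, 5.49 and 5.87 FPKM against 3.46, 5.02 and 3.80, with every High-Low value below every 2xTrp value and an adjusted p of 0.998 in limma. SELENOS, a selenoprotein of ER-associated degradation, had means of 36.9 and 29.1 FPKM that differed by about the spread between libraries (SD 6.71 and 7.60, n = 3 each). ATF4, DDIT3 and ERN1 were not analysed here.

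Among other ER folding enzymes 17 of 30 were tested, 11 positive and 6 negative. TXNDC12, a thioredoxin-like protein of the ER, had 110, 124 and 121 FPKM in the 2xTrp libraries and 89.7, 95.7 and 76.3 in High-Low, with every High-Low value below every 2xTrp value. This came to -0.44 on the log2 scale (SE 0.18) and to the same adjusted p in limma, 0.998. FKBP7, a prolyl isomerase, had 2.29 ± 1.39 and 3.68 ± 0.812 FPKM (SD, n = 3 each). In ER quality control and degradation 20 of 29 were tested, 13 positive and 7 negative, and in ER translocation and N-glycosylation 19 of 22, 7 positive and 12 negative. EDEM3 and UGGT1, which act on the glycans of misfolded proteins, had their highest values in High-Low 1 (3.64 and 2.50 FPKM) and their lowest in High-Low 2 (0.226 and 0.528). The oligosaccharyltransferase subunits STT3A and STT3B were also highest in High-Low 1, at 57.0 and 16.4 FPKM. Of all genes tested, 23.6% were highest in High-Low 1, and these 4 span 57067, 88061, 26105 and 100743 bases, lengths at which genes in general were high in that library.

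On the heat shock side, HSF1 itself had 52.0, 52.3 and 40.7 FPKM in the 2xTrp libraries and 41.7, 58.8 and 40.7 in High-Low, a log2 fold change of -0.05 (SE 0.22). The HSF1 values overlapped between diets. They were highest in High-Low 2, where DNAJB1 was second highest, and the release of HSF1 was not measured here. Of heat shock factors and cochaperones 25 of 37 were tested, 9 positive and 16 negative. ST13, a cochaperone of HSP70, had 130, 158 and 123 FPKM against 178, 158 and 181, with every High-Low value above every 2xTrp value, although the closest pair both round to 158. The kinase cochaperone CDC37 had 106 ± 4.36 and 90.1 ± 16.9 FPKM (SD, n = 3 each). HSPB6 and HSPB8, the 2 small heat shock proteins tested of 7, had 14.2 ± 4.38 against 8.30 ± 1.83 and 38.9 ± 17.7 against 26.0 ± 8.19 FPKM (SD, n = 3 each). HSPB8, the partner of BAG3, was highest in 2xTrp 3, at 58.6 FPKM.

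The ring-shaped cytosolic chaperonin and its helper prefoldin had 10 of 14 genes tested, 3 positive and 7 negative, with a median highest-to-lowest ratio of 1.38 beside 2.06 for all genes. CCT4, a subunit of that ring, had 26.9, 25.7 and 27.6 FPKM in the 2xTrp libraries and 29.8, 29.9 and 31.2 in High-Low, so the groups did not overlap, at a log2 fold change of 0.17 (SE 0.16). CCT2 had 35.2 ± 4.92 and 42.0 ± 7.33 FPKM (SD, n = 3 each). Of mitochondrial chaperones and proteases 6 of 11 were tested, 4 positive and 2 negative. CLPX, which unfolds proteins for the mitochondrial protease CLPP, had 6.17, 19.5 and 16.8 FPKM against 33.9, 8.65 and 18.3, lowest and highest in the same libraries as HSPD1, over a span of 48992 bases. AFG3L2, a protease of the inner membrane, had 27.0 ± 0.482 and 25.1 ± 2.63 FPKM (SD, n = 3 each).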

How the data were processed

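RNA from newborn liver was extracted with Trizol and made into libraries with an Illumina TruSeq kit, per the labels' protocols. HTSeq 0.6.1, TopHat2 2.0.12 and Bowtie2 2.2.3, with the pig build susScr3, are listed per the submitters' processing notes. Annotation, strand setting and the expression step were not given in the sources used here. For every library there is 1 table that the authors deposited with no unit in its header, and its values were taken as FPKM from their fractional form and unequal totals.

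A reference table gave symbols to 11804 of the 25322 Ensembl identifiers. Members and gene lists were chosen with earlier results of these data known. The 10901 genes at or above 1 FPKM in 3 libraries were fitted together with limma 3.58.1 in R 4.3.3 on log2(FPKM + 1), a scale that understates changes of low genes, with a mean-variance trend and robust estimation. P-values were adjusted by Benjamini-Hochberg over 10901 genes. Before use, this fit was tested on data simulated without shared library patterns, with changes of 2 on the log2 scale in 200 genes. These were drawn from genes with a mean log2(FPKM + 1) above 3, a level that HSPA4, HSPH1 and CHORDC1 did not reach. A median of 92% of the changed genes were recovered over 10 runs, with a median of 8.5 false calls. All log2 fold changes of members were smaller than 2, and recovery at their size was not tested. Values in every library are given for the 4 members per arm of highest mean, smallest p and largest range, and for a fixed set (HSPA5, XBP1, DNAJB1, HSPH1, the inducible HSP70 genes); of each background list the 2 genes of smallest p are named, with ATF4, DDIT3, ATF6, ERN1, EIF2AK3 and HSF1. DNAJA1, HSPA4, CHORDC1, HYOU1 and DNAJB11 are given by range or in full. Sequences were not used here.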

Additional observations from a re-analysis of the deposited data

How the results depend on the processing

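Settings tried were other pseudocounts (0.1, 0.5), other filters (none, 5 FPKM), scaling to the FPKM total, to the median ratio or by quantiles, variance without robustness or trend, array quality weights, a replicate block, each library left out, and, chosen after seeing the data, centring by gene span and the heat shock median without the HSPA1L row (0.14). The count of members past the threshold was 0 under each. The heat shock median moved from 0.13 to -0.033 with array quality weights and ran from -0.069 to 0.21 without single replicates. Of the 26 members 16 kept their sign under all settings that tested them. DNAJB11 (-0.0054) turned to 0.0080 with total scaling, 0.028 with the median ratio and 0.044 with quantiles, and PDIA6 (-0.08) to 0.031 with quantiles. Array quality weights turned PDIA4 to -0.13, DNAJA1 to -0.23 and HSPH1 to -0.072. Without single replicates the log2 fold change ran from -0.56 to 0.087 for CRELD2, -0.17 to 0.21 for DNAJA1, -0.24 to 0.27 for DNAJB11, -0.22 to 0.50 for HSP90B1, -0.0066 to 0.44 for HSPA4, -0.10 to 0.26 for HSPE1, -0.038 to 0.27 for HSPH1, -0.076 to 0.27 for PDIA3, -0.060 to 0.13 for PDIA4 and -0.24 to 0.069 for PDIA6. The filter at 5 FPKM left HSPA4, HSPH1 and CHORDC1 untested. For the replicate block, deviations of same-numbered libraries correlated at -0.22, -0.01 and 0.03. Whether the numbers pair the samples is not given by the labels. These correlations cannot settle it, because patterns of whole libraries, such as the trend with gene span, also enter them. With the block the count was 0, and the smallest unadjusted p of a member went from 0.107 to 0.0675 (BAG3, limma). In this balanced design a block cannot move a fold change, so the arm medians (-0.04 and 0.13) are not informative there. The unknown read depth limits low genes such as HSPH1, CHORDC1, AHSA1 and HSP70.2 most.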
